A study of Mus musculus with 2 samples.

Results

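The genes described here are used by macrophages to take up, carry, store and break down lipid, or mark macrophages loaded with it, and were followed through 2 single-cell libraries of tumour leukocytes. They were Cd36, Msr1, Trem2, Lpl, Lipa, Fabp4, Fabp5, Plin2, Apoe and Gpnmb, 10 of the 27998 genes in the files. The set was picked by symbol, with earlier results of these data known. Both libraries held leukocytes, sorted as CD45+, from tumours of B16, a transplanted mouse melanoma line, grown in female C57BL/6 mice aged 5 weeks, taken 14 days after inoculation. The first library held cells of the genotype Nrp1L/L Foxp3Cre-YFP, where Cre can cut the floxed Nrp1 gene of regulatory T cells. The second held cells of Foxp3Cre-YFP control animals, which carry the same Cre without the floxed gene. The Foxp3 locus drives Cre in both, so the macrophages described here are not the cells in which Nrp1 is targeted. Each genotype had 1 library and the labels do not say how many mice it pools, so genotype, mouse, tumour and library cannot be told apart and no test of genotype was possible. All intervals below are exact 95% intervals and cover counting error only.

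As background, macrophages take up modified lipoproteins and fatty acids through scavenger receptors such as CD36 and MSR1. Lipoprotein lipase frees fatty acids outside the cell, FABP proteins carry them inside it, lysosomal acid lipase frees them from lipoprotein cholesteryl esters, and surplus is kept in droplets coated by perilipin-2. Apolipoprotein E carries cholesterol out of the cell. TREM2 binds lipids and apolipoproteins, and in mouse and human adipose tissue, tumours and brain it marks lipid-associated macrophages together with Gpnmb, Fabp5 and Spp1.

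Cells were gated on UMIs, the tags that count each captured transcript once. Macrophages had at least 10 UMIs of C1qa, C1qb and C1qc together, and counted as cycling with at least 3 UMIs of Mki67, Top2a, Birc5 and Ube2c. Monocytes had at least 10 Lyz2 UMIs and fewer than 10 C1q UMIs, and lymphocytes at least 2 CD3 UMIs. There were 5 cycling macrophages in the Nrp1L/L library, against 58 in the control library, and 82 non-cycling macrophages, against 213. Monocytes numbered 135 in Nrp1L/L and 323 in control, and lymphocytes 751 in Nrp1L/L and 437 in control. The median UMIs per cell were 8263 in Nrp1L/L and 9665 in control non-cycling macrophages, 8042 and 7759 in monocytes, and 5106 and 7718 in lymphocytes. Cycling macrophages had 15390 UMIs per cell in Nrp1L/L and 15215 in control, so that gate took deeper cells. Levels are given as CPM, a gene's UMIs in each 1000000 UMIs of its class, and a gene was called higher or lower at a 1.5-fold difference with at least 20 UMIs over both sides.

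Marker sums describe the classes, and the macrophage markers include the C1q genes of the gate. The 9 macrophage markers other than Apoe summed to 15807 CPM in Nrp1L/L and 13459 CPM in control non-cycling macrophages. In monocytes they summed to 1641 and 1760 CPM, and in lymphocytes to 39.2 and 67.2 CPM, with each marker found in all these classes. Of 4 adipocyte genes, Adipoq, Plin1 and Lep had 0 UMIs in every class, and Cfd had only 2 UMIs, in Nrp1L/L non-cycling macrophages. The targeted gene had 33.1 CPM in Nrp1L/L lymphocytes and 52.6 CPM in control lymphocytes, and 64.8 and 65.4 CPM in non-cycling macrophages. Foxp3 itself gave only 5 UMIs in Nrp1L/L and 3 UMIs in control lymphocytes, and 3' tags outside the excised part would not show the deletion.

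All 10 genes are protein coding in the annotation. The positions are from GENCODE M21 on GRCm38, the build that mm10 names. Gpnmb spans chr6:49036546-49070929 on the plus strand, Plin2 chr4:86648386-86670060 on the minus strand and Trem2 chr17:48346401-48354147 on the plus strand. Fabp5 spans chr3:10012548-10016607 on the plus strand and Fabp4 chr3:10204088-10208576 on the minus strand. Cd36 lies at chr5:17781690-17888801, Msr1 at chr8:39581685-39642673, Lipa at chr19:34492318-34527474 and Apoe at chr7:19696109-19699188, all on the minus strand, and Lpl at chr8:68880491-68907448 on the plus strand. No member overlaps another annotated gene on either strand. Fabp5 is known to have processed pseudogene copies in the mouse genome. The files hold 1 row of that name, and how reads shared with copies were counted is not given in the sources used here, so its level is uncertain to that extent. Promoter windows of 300 bases, 250 before to 50 after the start, were in the RefSeq table (GRCm38.p6) for 6 of the 10 genes. The windows of Gpnmb, Plin2 and Trem2 are shown because they are the windows that hold a match. Capitals mark a match to 1 of 6 motifs searched on both strands.

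Gpnmb, chr6:49036268-49036567, plus strand: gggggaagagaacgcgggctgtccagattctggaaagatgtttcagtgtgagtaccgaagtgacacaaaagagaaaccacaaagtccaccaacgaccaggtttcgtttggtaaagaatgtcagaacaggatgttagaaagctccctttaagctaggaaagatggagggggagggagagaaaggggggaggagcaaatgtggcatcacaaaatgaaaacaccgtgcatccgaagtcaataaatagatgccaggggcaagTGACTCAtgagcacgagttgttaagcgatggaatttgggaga
Plin2, chr4:86670010-86670309, minus strand: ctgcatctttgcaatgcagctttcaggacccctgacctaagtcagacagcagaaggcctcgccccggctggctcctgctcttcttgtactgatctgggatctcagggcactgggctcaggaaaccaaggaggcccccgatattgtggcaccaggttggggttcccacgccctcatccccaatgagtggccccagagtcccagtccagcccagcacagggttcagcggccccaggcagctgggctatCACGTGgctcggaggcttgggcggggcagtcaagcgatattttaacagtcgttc
Trem2, chr17:48346151-48346450, plus strand: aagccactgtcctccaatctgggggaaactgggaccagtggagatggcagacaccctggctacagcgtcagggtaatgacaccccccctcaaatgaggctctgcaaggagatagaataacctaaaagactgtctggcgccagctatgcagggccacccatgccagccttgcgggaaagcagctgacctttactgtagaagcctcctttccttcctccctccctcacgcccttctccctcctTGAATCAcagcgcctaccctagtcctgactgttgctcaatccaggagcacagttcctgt

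The Plin2 window held 1 E-box (CACGTG) beginning at base 247 of the window, a motif found in 7.15% of all 32851 windows of this length. The Gpnmb window held 1 AP-1 motif (TGANTCA) at base 259 and the Trem2 window 1 at base 242, against 7.81% of all windows. The M-box (CATGTG, in 14.2% of windows), the PU.1 motif (GAGGAAGT, 3.20%) and the nuclear receptor motifs DR1 and DR4, direct repeats of AGGTCA (0.0396% and 0.0152%), were not found in the windows of these 3 genes, nor did any of the 6 motifs occur in those of Cd36, Apoe or Lipa. No marked motif overlapped another. These are matches of letters only.

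The first question was where the 10 genes are expressed. All 10 were at least 1.5-fold higher in non-cycling macrophages than in lymphocytes in both libraries, against 14.4% of 8853 genes counted, and 0 were lower, against 33.8%. Msr1 was 489-fold higher in Nrp1L/L and 103-fold higher in control, Plin2 24.3-fold and 25.8-fold, and Lipa 3.93-fold and 4.69-fold. Fabp4 had 0 UMIs in the Nrp1L/L lymphocytes and was at least 45.9-fold higher in macrophages there, against a floor of 3 UMIs over the class. Non-cycling macrophages were set against monocytes next. Cd36, Trem2, Lpl, Lipa and Fabp5 were higher in macrophages in both libraries, 5 of 10, where 8.16% of 5746 genes were, and 0 of 10 were lower, where 9.33% were. Plin2 was called higher in Nrp1L/L alone, and Fabp4 and Apoe in control alone. Msr1 and Gpnmb were within 1.5-fold in both. Most UMIs of the receptors lay in these gates. Macrophages and monocytes together held 91.7% of Msr1 UMIs in Nrp1L/L and 92.8% in control, but 41.1% of Lipa UMIs in Nrp1L/L and 75.3% in control. The share was also low for Gpnmb (50% in Nrp1L/L and 72.7% in control), Fabp4 (56.3% and 74.6%) and Fabp5 (68.2% and 69.4%).

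**Figure D1:**
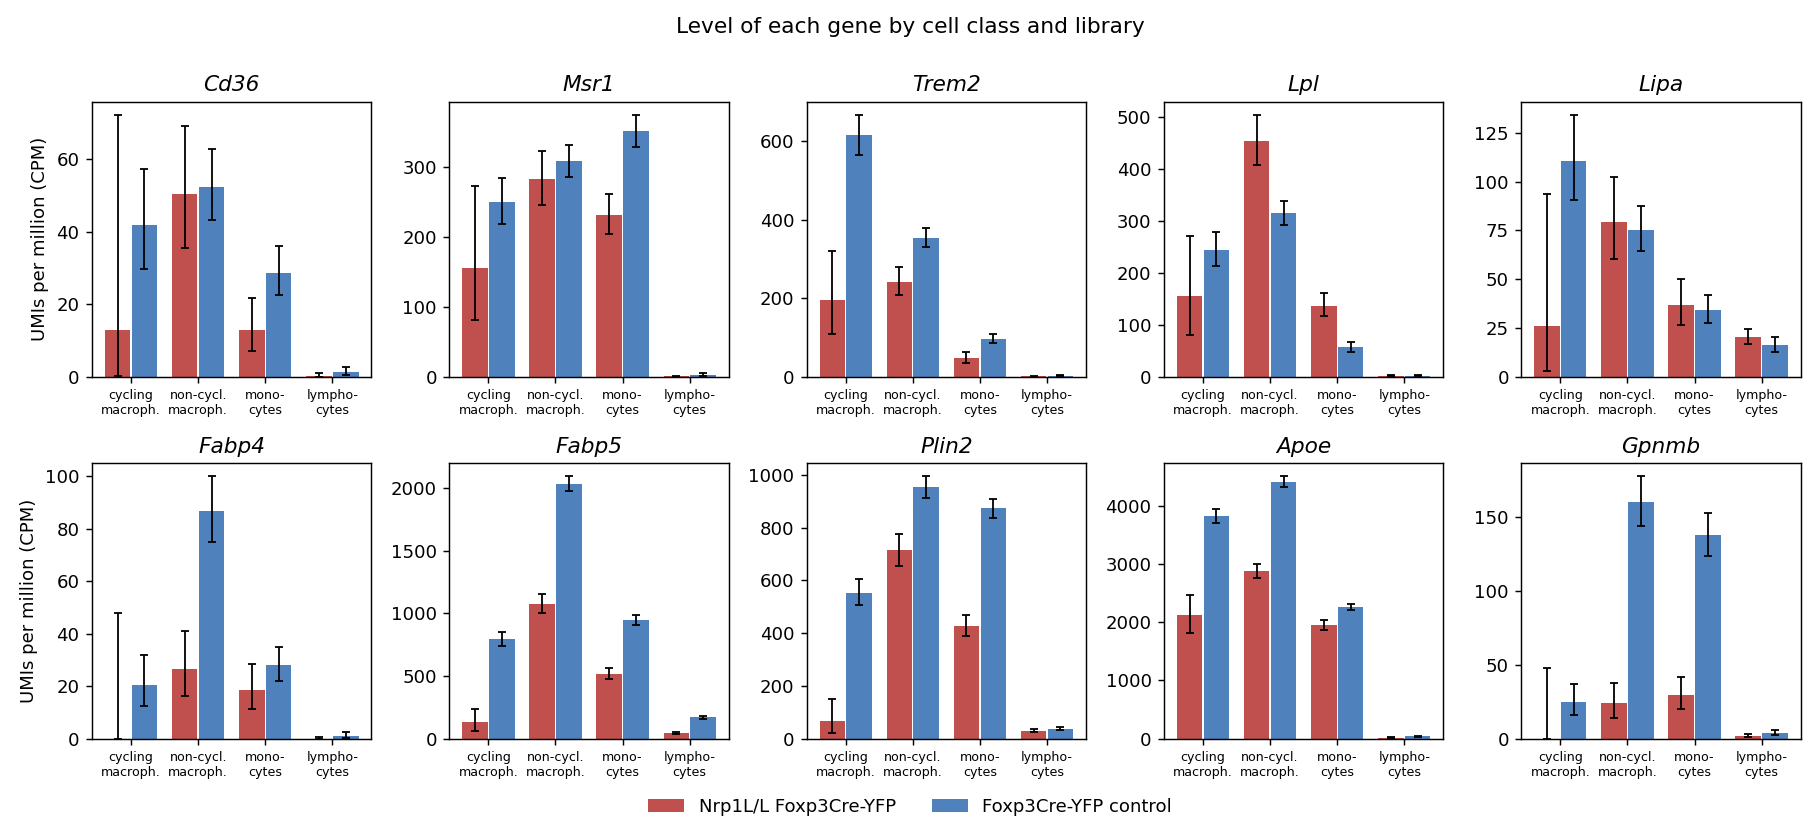
Level of each of the 10 genes (CPM, each panel on its own scale from 0) in cycling macrophages, non-cycling macrophages, monocytes and lymphocytes. Red bars are the Nrp1L/L library and blue bars the control library, with exact 95% Poisson intervals. Lymphocyte bars are near 0 for most genes, and Gpnmb reaches 23.8 CPM in Nrp1L/L and 160 CPM in control non-cycling macrophages.

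The genotypes were compared within each class. In non-cycling macrophages 4 of 10 genes were called lower in Nrp1L/L (Gpnmb, Fabp4, Fabp5 and Apoe), where 20.4% of 7011 genes were, and 0 were called higher, where 15.6% were. In monocytes 7 of 10 were called lower, where 18% of 7264 genes were, and 1, Lpl, was called higher, where 17% were. The median log2 ratio of Nrp1L/L over control was -0.48 for the 10 genes and -0.05 for all genes in non-cycling macrophages, and -0.74 and 0.00 in monocytes. Interferon-induced genes moved with genotype in the same cells: all 14 genes of an interferon list were called higher in Nrp1L/L non-cycling macrophages and 13 of 14 in monocytes. Its part in the lipid genes' values was not tested.

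**Figure D2:**
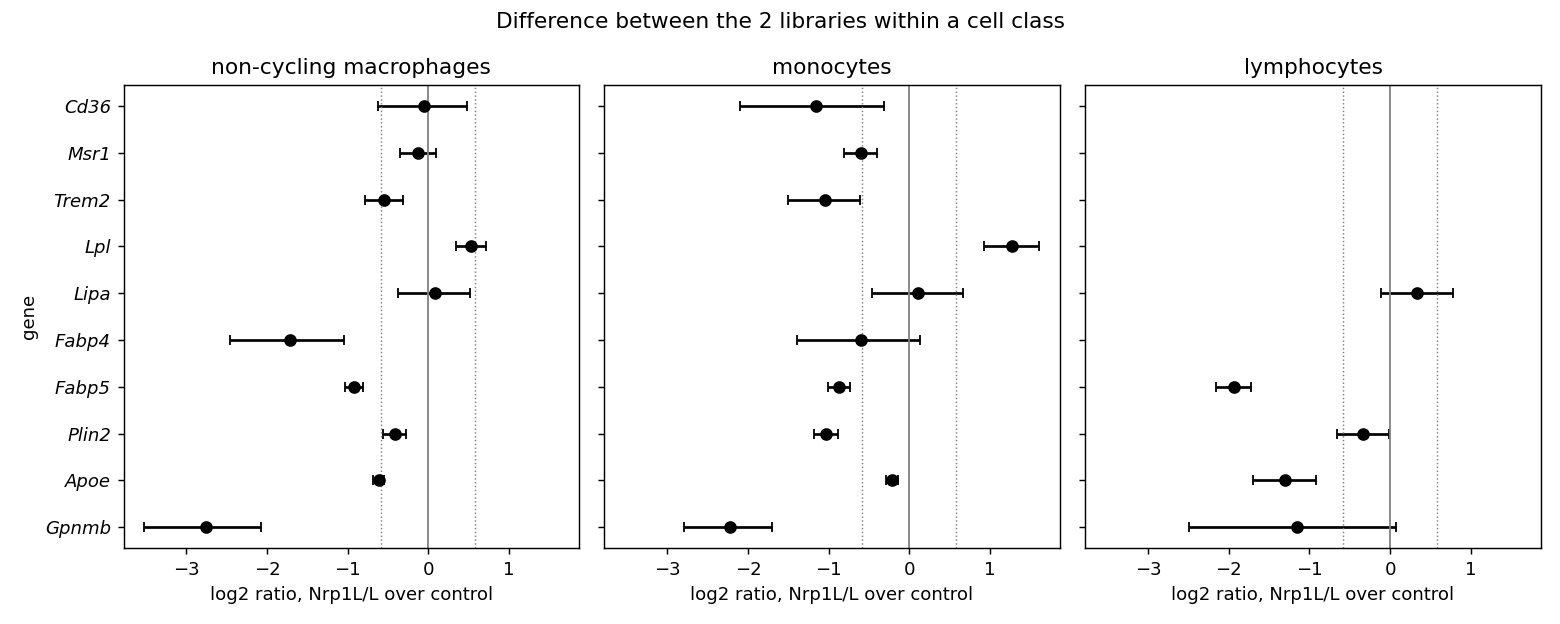
Log2 ratio of Nrp1L/L over control CPM for each gene (rows) in non-cycling macrophages, monocytes and lymphocytes. Points are ratios with exact 95% counting intervals, dotted lines mark 1.5-fold, and genes under 20 UMIs are left out. Lpl lies right of 0 in macrophages and monocytes, and Gpnmb lies left of 0 in all 3 panels.

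Uptake receptors came first. CD36 is a receptor for fatty acids and oxidised lipoproteins. Cd36 had 50.3 CPM (35.6 to 69.0) in Nrp1L/L and 52.4 CPM (43.3 to 62.8) in control non-cycling macrophages, with overlapping intervals and a log2 ratio of -0.06 (-0.63 to 0.48). Monocytes had 12.9 CPM in Nrp1L/L and 28.6 CPM in control, a log2 ratio of -1.15 (-2.09 to -0.32). The monocyte values rest on few cells: 7 of 135 Nrp1L/L monocytes and 28 of 323 control monocytes held a UMI. Lymphocytes held 1 and 6 UMIs.

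Msr1, which encodes scavenger receptor A, had 282 CPM in Nrp1L/L and 308 CPM in control non-cycling macrophages, a log2 ratio of -0.13 (-0.35 to 0.10). The monocyte level was 231 CPM in Nrp1L/L and 351 CPM in control, with a log2 ratio of -0.60 (-0.81 to -0.40). Msr1 was thus slightly higher in macrophages than in monocytes of the Nrp1L/L library (log2 ratio 0.29, 0.02 to 0.56) and slightly lower in those of the control library (-0.19, -0.33 to -0.04). It was spread over many cells, with a UMI in 73.2% of Nrp1L/L and 75.1% of control non-cycling macrophages, against 0.40% and 2.97% of lymphocytes.

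Trem2 had the largest ratio of macrophage to monocyte level among these 3 receptors in both libraries, 5.16-fold in Nrp1L/L and 3.66-fold in control. Its level was 242 CPM (208 to 280) in Nrp1L/L and 354 CPM (330 to 380) in control non-cycling macrophages, and 46.9 and 96.7 CPM in monocytes. The log2 ratio between genotypes was -0.55 (-0.79 to -0.31) in non-cycling macrophages, just under the 1.5-fold call, and -1.04 (-1.51 to -0.60) in monocytes. With cycling macrophages included, Trem2 had 238 CPM in Nrp1L/L and 431 CPM in control macrophages, a log2 ratio of -0.86. Trem2 signals through the adaptor Tyrobp.

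Lpl, the secreted lipase, was called higher in Nrp1L/L monocytes. It was called lower in the few cycling macrophages, with a log2 interval that includes 0 (-1.62 to 0.18). Its level was 454 CPM in Nrp1L/L and 314 CPM in control non-cycling macrophages, a log2 ratio of 0.53 (0.34 to 0.72), under the call. In monocytes it had 137 CPM in Nrp1L/L and 56.9 CPM in control, a log2 ratio of 1.27 (0.93 to 1.61). A single control macrophage held 183 of the 702 Lpl UMIs there. Without the cell highest for Lpl in each library the log2 ratio was 0.78 in non-cycling macrophages. That control cell had 26742 UMIs, 51 of them C1q and 371 Lyz2. When cells were thinned to 2500 UMIs before gating it kept 6 C1q UMIs and passed the monocyte gate. With those gates, which left 133 Nrp1L/L and 296 control monocytes, the log2 ratio of Lpl in monocytes was -0.06, so the call was lost.

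Lipa, which encodes the lysosomal acid lipase, had 79.4 CPM in Nrp1L/L and 75.2 CPM in control non-cycling macrophages, and 36.8 and 34.0 CPM in monocytes. Its log2 ratio was 0.08 (-0.37 to 0.51) in macrophages and 0.11 (-0.46 to 0.67) in monocytes. Relative to macrophages, Lipa also had the highest lymphocyte level of these genes in both libraries. Its level in lymphocytes was 20.2 CPM in Nrp1L/L and 16.0 CPM in control, 27.1% and 18.7% of the macrophage level, where the C1q genes reached 0.192% and 0.348%.

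The fatty acid carriers were lower in Nrp1L/L. Fabp4 had 26.5 CPM in Nrp1L/L and 86.9 CPM in control non-cycling macrophages, a log2 ratio of -1.71 (-2.46 to -1.05). Few cells carried it, 5 of 82 in Nrp1L/L and 32 of 213 in control, and 1 Nrp1L/L cell held 13 of the 20 UMIs. Without the cell highest for Fabp4 in each library the log2 ratio was -3.04. In monocytes it had 18.4 CPM in Nrp1L/L and 27.9 CPM in control, and that log2 ratio of -0.60 had an interval that includes 0 (-1.39 to 0.13).

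Fabp5 had 1076 CPM (1003 to 1152) in Nrp1L/L and 2035 CPM (1976 to 2095) in control non-cycling macrophages, a log2 ratio of -0.92 (-1.03 to -0.81). In monocytes it had 518 CPM in Nrp1L/L and 946 CPM in control, a log2 ratio of -0.87. The median non-cycling macrophage held 2.90 Fabp5 UMIs in each 10000 in Nrp1L/L and 11.8 in control, and the highest cell 161 and 179. The cells ranged from 0 in both libraries, so they overlapped, and 63.4% of Nrp1L/L and 87.8% of control cells held a UMI. With every cell thinned to 2500 UMIs, 41 of 82 and 156 of 213 cells held one. In lymphocytes 11.1% of Nrp1L/L and 39.6% of control cells held a Fabp5 UMI without thinning, and 5.06% and 16.7% with it. Without the cell highest for Fabp5 in each library the log2 ratio in non-cycling macrophages was -1.13.

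Plin2, the droplet coat protein, had 714 CPM (655 to 777) in Nrp1L/L and 954 CPM (913 to 995) in control non-cycling macrophages, a log2 ratio of -0.42 (-0.56 to -0.28). In monocytes it had 427 CPM in Nrp1L/L and 874 CPM in control, a log2 ratio of -1.03 (-1.18 to -0.89). Control monocytes thus stood close to control macrophages for Plin2, while Nrp1L/L monocytes had 1.67-fold less than Nrp1L/L macrophages.

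Apoe, the cholesterol-carrying apolipoprotein, had 2888 CPM (2768 to 3012) in Nrp1L/L and 4425 CPM (4339 to 4513) in control non-cycling macrophages, a log2 ratio of -0.62 (-0.68 to -0.55). One control macrophage held 1112 of 9885 Apoe UMIs. Without the cell highest for Apoe in each library the log2 ratio was -0.60. In monocytes Apoe had 1952 CPM in Nrp1L/L and 2264 CPM in control, within 1.5-fold.

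Gpnmb, a transmembrane glycoprotein of lysosomes that is induced in lipid-laden macrophages, had the widest difference of the 10 in non-cycling macrophages and in monocytes. It had 23.8 CPM (14.1 to 37.6) in Nrp1L/L and 160 CPM (144 to 178) in control non-cycling macrophages, a log2 ratio of -2.75 (-3.52 to -2.07). In monocytes it had 29.4 CPM in Nrp1L/L and 138 CPM in control, a log2 ratio of -2.23 (-2.80 to -1.70). A UMI was found in 12.2% of Nrp1L/L and 38.0% of control non-cycling macrophages, against 0.799% and 3.20% of lymphocytes. The monocyte level was concentrated: a single control monocyte held 90 of 356 Gpnmb UMIs, and the tenth of control monocytes with the most held 96.1%. Without the cell highest for Gpnmb in each library the log2 ratio in monocytes was -2.64.

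Melanoma cells also express Gpnmb, so melanocyte genes were counted beside it. The 6 melanocyte genes Pmel, Mlana, Dct, Tyrp1, Tyr and Ptgds summed to 51.6 CPM in Nrp1L/L and 57.8 CPM in control non-cycling macrophages, and to 6.44 and 8.13 CPM in monocytes. Without cells holding at least 5 melanocyte UMIs (1 Nrp1L/L and 3 control non-cycling macrophages), the Gpnmb log2 ratio was -2.72 in those macrophages. The monocyte gate held dendritic marker genes at 514 CPM in Nrp1L/L and 129 CPM in control. Without cells of at least 2 dendritic UMIs (19 Nrp1L/L and 20 control monocytes), the log2 ratio in monocytes was 1.45 for Lpl, -1.34 for Fabp4 (against -0.60 with them) and -0.50 for Msr1, which was then no longer called.

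**Figure D3:**
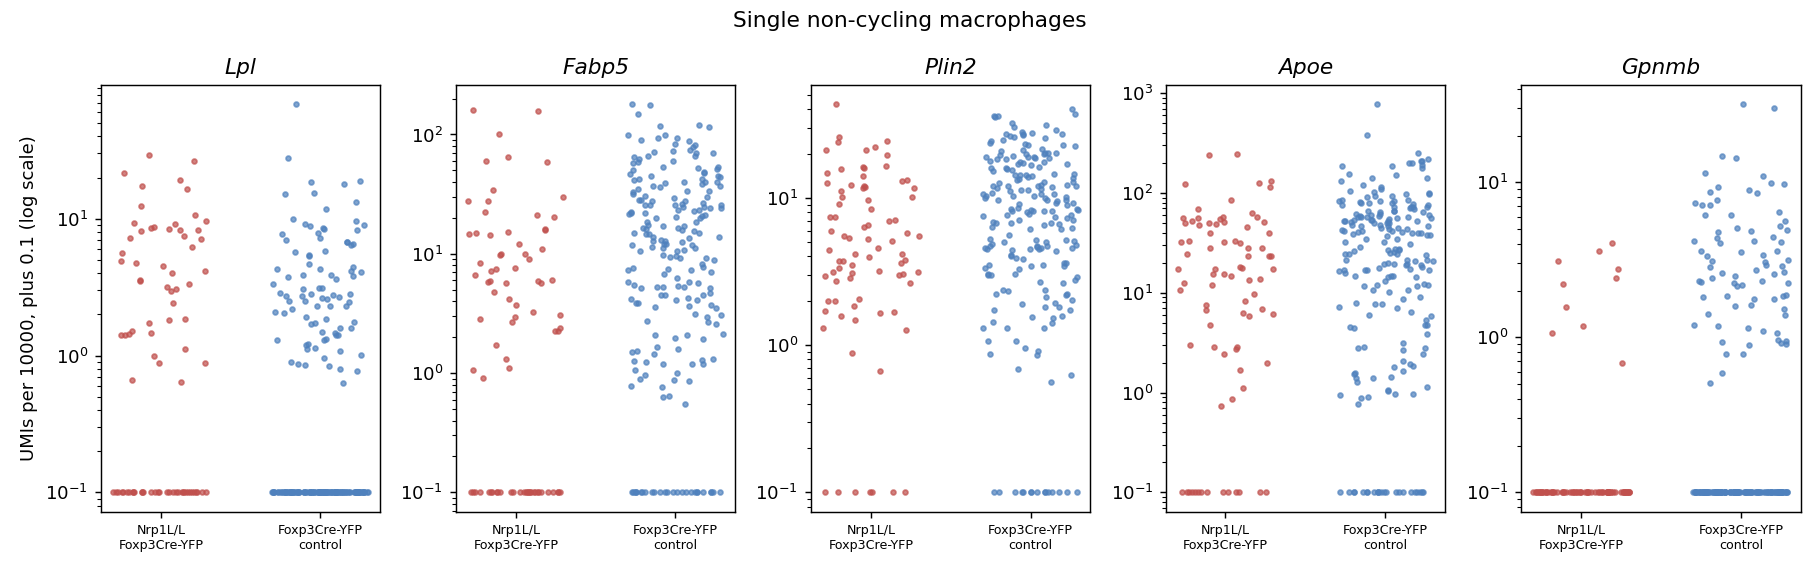
Each point is 1 non-cycling macrophage, 82 Nrp1L/L cells in red and 213 control cells in blue, with UMIs of the gene in each 10000 UMIs of the cell plus 0.1 on a log scale. Cells with 0 UMIs form the bottom row, and the 1 control cell with 183 Lpl UMIs and the 1 with 1112 Apoe UMIs stand above the rest.

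Cycling macrophages were set against non-cycling ones within each library. In Nrp1L/L, Trem2 had 195 CPM in 5 cycling and 242 CPM in 82 non-cycling macrophages, a log2 ratio of -0.32 (-1.18 to 0.44). In control, Trem2 had 615 CPM in cycling and 354 CPM in non-cycling macrophages, a log2 ratio of 0.80 (0.64 to 0.95). The control ratio was 0.54 with TMM scaling and 0.17 with gates on thinned cells, both under the call, and the Nrp1L/L ratio was 1.48 with those gates, on 3 cycling cells. Fabp5 had 130 CPM in cycling and 1076 CPM in non-cycling Nrp1L/L cells, and Plin2 64.8 and 714 CPM. In control, Fabp5 had 793 CPM in cycling and 2035 CPM in non-cycling cells, Plin2 554 and 954 CPM, Fabp4 20.4 and 86.9 CPM, and Gpnmb 24.7 and 160 CPM. Lipa had 111 CPM in cycling and 75.2 CPM in non-cycling control cells, within 1.5-fold. Of the 9 genes counted in both libraries, 0 were higher in cycling cells, where 9.4% of 3970 genes were, and Fabp5 and Plin2 were lower, where 7.38% were. The median gene stood at 0.20 on the log2 scale in control, and with TMM scaling 3 genes were lower in both libraries.

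The 5 cycling macrophages of the Nrp1L/L library held 77114 UMIs, so their comparison with the 58 control cells was coarse. There, 8 of the 9 genes counted were called lower in Nrp1L/L, where 25.9% of 4841 genes were, and 0 were called higher, where 22.3% were. Of those called lower, Cd36 (-7.03 to 0.87, on 1 Nrp1L/L UMI), Msr1 (-1.65 to 0.15) and Lpl (-1.62 to 0.18) had log2 intervals that include 0. Plin2 had 5 UMIs in Nrp1L/L (64.8 CPM, 21.1 to 151) and 515 UMIs in control (554 CPM, 507 to 604), a log2 ratio of -3.09. Trem2 had 195 CPM in Nrp1L/L and 615 CPM in control, with a log2 ratio of -1.66 (-2.51 to -0.93). Gpnmb and Fabp4 had 0 UMIs in the 5 Nrp1L/L cells, which by the floor of 3 UMIs allows a level of up to 38.9 CPM (exact upper bound 47.8 CPM), and 24.7 and 20.4 CPM in control. When the gates were set on cells thinned to 2500 UMIs, 3 Nrp1L/L and 15 control cells remained cycling and 3 genes were called lower.

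In lymphocytes 5 of the 10 genes reached 20 UMIs. Fabp5, Apoe and Gpnmb were called lower in Nrp1L/L, 3 of 5, where 12.6% of 9752 genes were, and 0 were called higher, where 14.5% were. Fabp5 had 44.2 CPM in Nrp1L/L and 170 CPM in control, a log2 ratio of -1.94 (-2.16 to -1.73). It was 4.48% of the Nrp1L/L and 10.2% of the control macrophage level, well above the C1q genes' 0.192% and 0.348% in the same lymphocytes. Among cycling lymphocytes, 119 cells in Nrp1L/L and 145 in control, Fabp5 had 75.8 CPM in Nrp1L/L and 172 CPM in control. Among non-cycling ones, 632 and 292 cells, it had 28.3 and 167 CPM, so the difference was present in both. Some cells in the lymphocyte gate held dendritic marker genes. Without cells of at least 2 dendritic UMIs (59 Nrp1L/L and 67 control lymphocytes), the Fabp5 log2 ratio in lymphocytes was -1.57. Apoe had 15.6 CPM in Nrp1L/L and 38.5 CPM in control lymphocytes, 0.553% and 0.906% of the macrophage level. In both libraries that share lay between those of the C1q genes and of Lyz2, which reached 1.06% in Nrp1L/L and 1.06% in control. Macrophages made up 6.82% of Nrp1L/L and 20.8% of control cells. The part of free RNA in the Apoe call in lymphocytes was not tested. Gpnmb had 9 and 18 UMIs, and its interval includes 0 (-2.49 to 0.08).

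Monocytes and macrophages form a range in C1q content, so both were binned by C1q UMIs. Trem2 was highest at the top end. It had 41.4 CPM in Nrp1L/L and 111 CPM in control cells with 0 C1q UMIs, and 294 and 567 CPM in cells with at least 100. Lpl had 146 CPM in Nrp1L/L and 62.8 CPM in control cells at 0 C1q, 391 and 388 CPM in cells with 30 to 99, and 487 and 255 CPM in cells with at least 100. The control level at 30 to 99 includes the cell with 51 C1q UMIs described above, which held 183 of the 298 Lpl UMIs there. Fabp5 in cells with 30 to 99 C1q UMIs had 2206 CPM in Nrp1L/L (29 cells) and 2110 CPM in control (88 cells), with overlapping intervals. A single Nrp1L/L cell with 78 C1q UMIs held 134 of the 508 Fabp5 UMIs of those 29 cells, so the closeness of the libraries there depends on it. In cells with at least 100 C1q UMIs, Fabp5 had 558 CPM in Nrp1L/L (39 cells) and 1382 CPM in control (138 cells). With 10 to 29 C1q UMIs it had 389 CPM in Nrp1L/L (19 cells) and 2203 CPM in control (45 cells). Gpnmb had its highest control level, 305 CPM, in the 43 cells with 3 to 9 C1q UMIs, where the 14 Nrp1L/L cells held 0 UMIs. That control level rests mostly on a single monocyte with 4 C1q UMIs, which held 90 of the 108 Gpnmb UMIs there. Deeper cells reach higher bins: median UMIs in the top bin were 11255 in Nrp1L/L and 13493 in control.

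**Figure D4:**
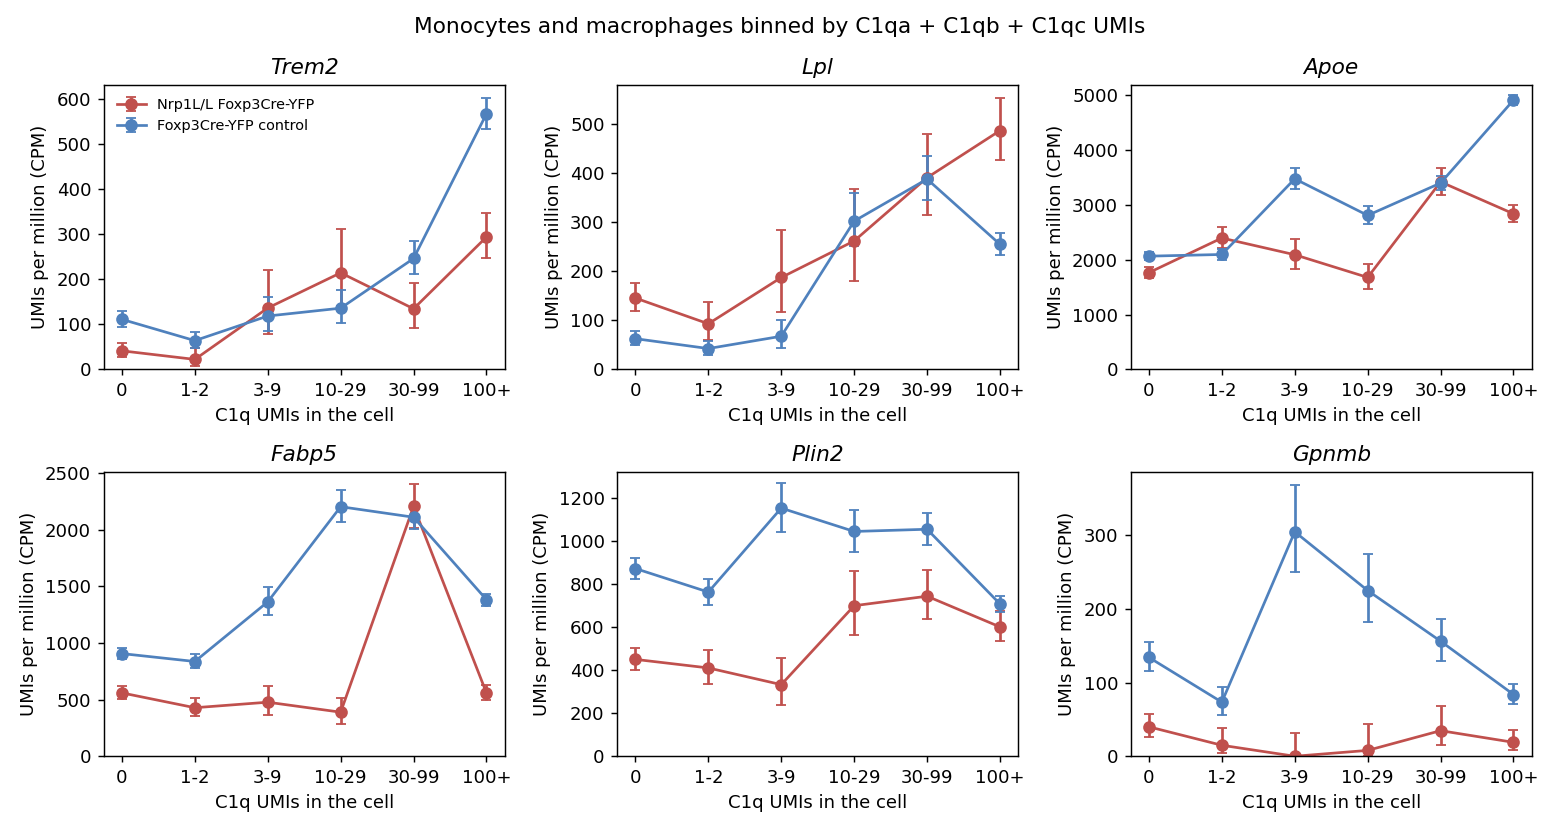
Level (CPM) of 6 genes in monocytes and macrophages binned by the C1q UMIs of the cell (x axis, 0 to at least 100). Red is Nrp1L/L and blue is control, with exact 95% Poisson intervals. Trem2 reaches 294 CPM in Nrp1L/L and 567 CPM in control cells in the top bin. The Fabp5 lines meet in the bin of 30 to 99, where a single Nrp1L/L cell held 134 of 508 Fabp5 UMIs.

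Co-expression was described across single macrophages of each library, 87 in Nrp1L/L and 271 in control, as Pearson's r of log counts scaled to 10000. These cells share a library, depth and free RNA, so r is a description. Of the 45 pairs, 29 were above 0 in both libraries, 8 were at least 0.2 in both and 1, Trem2 with Apoe (0.31 in Nrp1L/L and 0.35 in control), was at least 0.3 in both. These counts were not made for pairs of other genes, so whether they exceed those of other expressed genes was not tested. Plin2, Gpnmb, Fabp5 and Fabp4 had r above 0 with each other in both libraries. Plin2 and Gpnmb had r of 0.29 in Nrp1L/L and 0.45 in control, Fabp5 and Gpnmb 0.36 and 0.28, Fabp4 and Fabp5 0.35 and 0.29, and Fabp5 and Plin2 0.19 and 0.38. Lpl went with Lipa (0.24 and 0.25) and Cd36 (0.23 and 0.23). The Nrp1L/L value for Fabp4 rests on 5 macrophages with a Fabp4 UMI, of which 1 held 13 of the 20 Fabp4 UMIs and also the most Fabp5 UMIs, 134. Trem2 had r of 0.13 in Nrp1L/L and -0.05 in control with Gpnmb, and its lowest r was with Msr1 (-0.22 and -0.08).

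Levels were also compared between macrophages with and without a Gpnmb UMI. Plin2 had 1517 CPM in the 10 Nrp1L/L macrophages with a Gpnmb UMI and 537 CPM in the 77 without, and 1338 and 572 CPM in the 96 and 175 control macrophages. Trem2 had 472 CPM with and 206 CPM without Gpnmb in Nrp1L/L, but 412 and 441 CPM in control. Median depth was 9506 UMIs with and 8549 without Gpnmb in Nrp1L/L, and 10406.5 and 10854 in control. Trem2 tracked the C1q genes, with r of 0.26 in Nrp1L/L and 0.49 in control, and ran against the monocyte gene Ly6c2, with r of -0.38 and -0.44. Fabp5 ran against the interferon list in Nrp1L/L (r of -0.38) and hardly in control (-0.04).

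**Figure D5:**
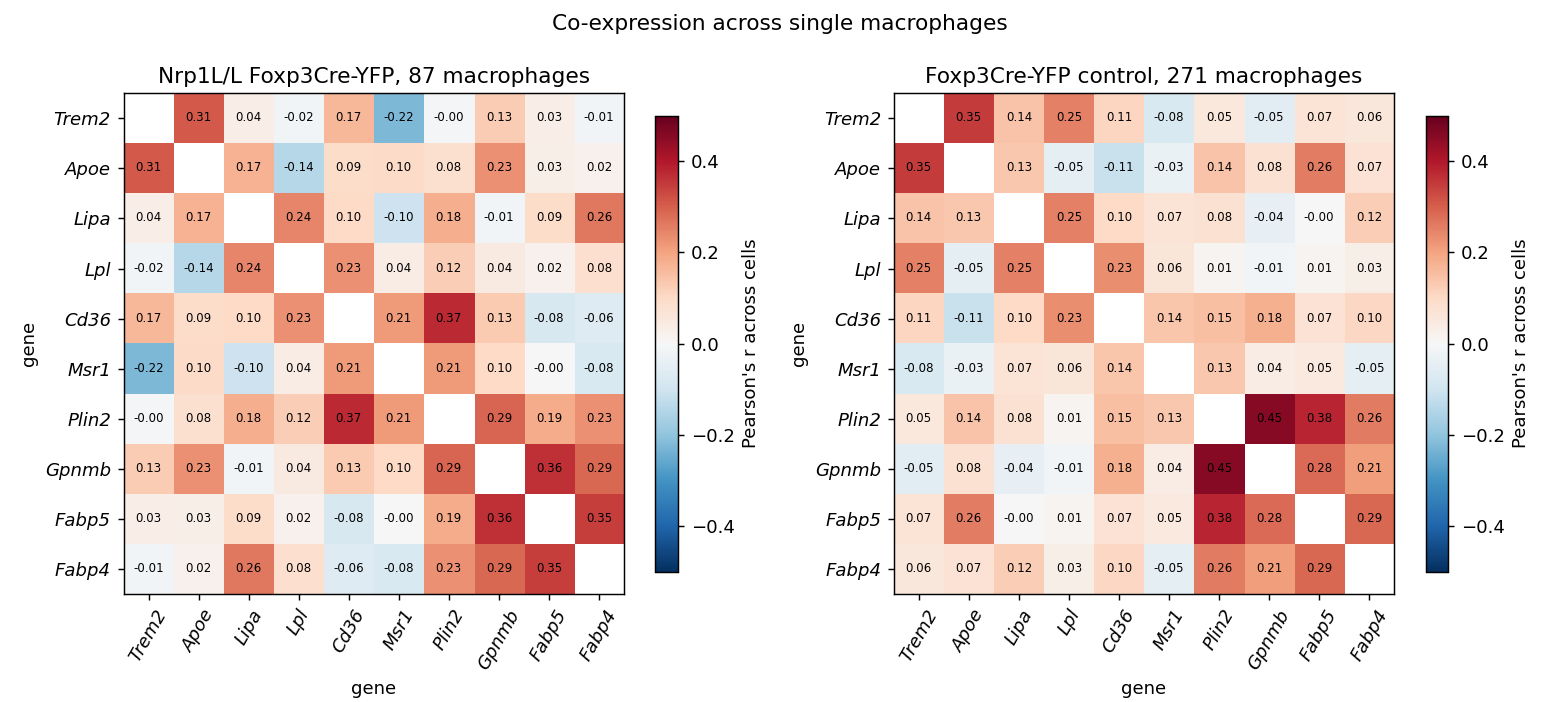
Pearson's r between each pair of the 10 genes across single macrophages, 87 Nrp1L/L cells on the left and 271 control cells on the right. Red squares are positive and blue negative, with the value printed. Plin2, Gpnmb, Fabp5 and Fabp4 have positive values with each other in both libraries, as does Trem2 with Apoe. Pairs of other genes were not counted for comparison.

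Among 4425 other genes found in at least 10% of macrophages in both libraries, the one most like each gene was sought by mean r over the libraries. For Plin2 it was Lgals3, galectin-3 (0.60 in Nrp1L/L and 0.51 in control). For Gpnmb it was Spp1, osteopontin (0.36 and 0.44), and for Fabp5 the ferritin light chain Ftl1 (0.46 and 0.42). For Trem2 it was Pf4 (0.41 and 0.52), followed by Timp2 and C1qb. Apoe was most like Ctsb (0.33 and 0.45), Msr1 most like C5ar1 (0.32 and 0.36), Cd36 most like Rhoc (0.51 and 0.24), Lpl most like Creg1 (0.32 and 0.31), and Lipa most like Ftl1 (0.45 and 0.17). Fabp4 was found in under 10% of macrophages in a library and was not ranked.

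A wider list of 62 lipid uptake, storage, efflux, lysosome and lipid-associated macrophage genes set the 10 in their pathway; 61 were in the files, 1 of them in 2 rows. In non-cycling macrophages 48 rows were counted, of which 6 were called higher in Nrp1L/L (12.5%, against 15.6% of all genes) and 13 lower (27.1%, against 20.4%), with a median log2 ratio of -0.11. Among those with intervals that exclude 0, those lower by most were Slc27a1, Syngr1, Spp1, Ctsl, Scarb2 and Hilpda. Spp1 had 1021 CPM in Nrp1L/L and 2832 CPM in control, the protease gene Ctsl 496 and 1322 CPM, and Hilpda, which encodes a lipid droplet protein that inhibits lipolysis, 327 and 756 CPM. Those higher with such intervals were Lipe, Cst7, Pparg and Nr1h3. Pparg, a fatty acid-sensing nuclear receptor, had 52.9 CPM in Nrp1L/L and 23.3 CPM in control, and Nr1h3, which encodes the oxysterol receptor LXR alpha, had 91.3 and 49.2 CPM.

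In monocytes 49 rows were counted, with 7 called higher (14.3%, against 17% of all genes) and 10 lower (20.4%, against 18%), shares near those of all genes, and a median of 0.09. Hilpda had 208 CPM in Nrp1L/L and 851 CPM in control, Spp1 482 and 1749 CPM and Ctsl 188 and 700 CPM, and Syngr1, Stab1 and Cd9 were also called lower with intervals that exclude 0. Higher in Nrp1L/L, also with such intervals, were Acsl1, Cst7, Dgat2, Pparg, Axl and Dgat1, the last being an enzyme of triglyceride synthesis. Pparg had 30.4 CPM in Nrp1L/L and 13.9 CPM in control monocytes. In lymphocytes 7 of 43 were called higher (16.3%, against 14.5% of all genes) and 9 lower (20.9%, against 12.6%). In cycling macrophages 4 of 36 were called higher (11.1%, against 22.3%) and 14 lower (38.9%, against 25.9%), led by Spp1 with 51.9 CPM in Nrp1L/L and 690 CPM in control.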

How the data were processed

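Single CD45+ cells were profiled by 3' tag counting on the GemCode platform with 14 cycles of amplification, per the labels' protocols, and 2600 cells were loaded per library. The authors deposited UMI counts per gene and cell, made with Cell Ranger 1.3 on mm10, per the submitters' processing notes. The libraries held 8978610 UMIs in 1301 barcodes for Nrp1L/L and 13042802 UMIs in 1310 barcodes for control, with medians of 5334 and 8079.5 UMIs per barcode; 3 barcode sequences occurred in both.

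Scrublet (scanpy 1.11.5, expected rate 2%) marked doublets. Its own threshold was used where it marked 0.5% to 10% of barcodes and the top 2% of scores otherwise, which left 1275 Nrp1L/L and 1302 control cells. The 15 cells per library that passed the CD3 gate and a myeloid gate were left out. UMIs were summed per library and class and scaled to CPM, with exact Poisson intervals for levels, conditional binomial intervals for ratios and Clopper-Pearson intervals for shares (scipy 1.17.1). The intervals cover counting error only, and neither cells nor UMIs stand for separate mice. With 1 library per genotype no p-value was computed. The scripts were tested on simulated data. TMM scaling used edgeR 4.0.16.

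The members and gene lists were chosen with earlier results of these data known. Pathway genes are named if at least 1.5-fold different with an interval that excludes no difference, at most 6 per direction and class. All 10 genes matched GENCODE M21 by identifier, as did 27645 of 27998 identifiers, and 6 of 10 had a RefSeq promoter window. Alternatives covered gates, thinning, scaling, doublets, minimum counts, marker-positive cells and, chosen after seeing the data, the highest cell left out.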

Additional observations from a re-analysis of the deposited data

Results flagged for a closer look

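Msr1 was picked out because its macrophage to monocyte ratio had opposite signs in the libraries, with counting intervals that both exclude 0. The log2 ratio of non-cycling macrophages over monocytes was 0.29 in Nrp1L/L and -0.19 in control. For Gpnmb the signs also differed, -0.31 in Nrp1L/L and 0.22 in control, with an interval in Nrp1L/L that includes 0. All of these are within 1.5-fold, each library is a single sample, and the difference between them was not tested.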

How the results depend on the processing

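No paired analysis was possible because each genotype had 1 library. Depth and the small cycling class set the main limits: with gates on cells thinned to 2500 UMIs only 3 Nrp1L/L and 15 control macrophages were cycling. In that class the 8 genes called lower became 3 with thinned gates, 5 with thinned sums and 5 with stricter gates, and the 0 called higher became 1 with thinned gates. There Msr1 (0.47), Trem2 (0.39) and Lpl (0.95) turned positive on the log2 scale with thinned gates, as did Lpl (0.0086) with stricter gates. In non-cycling macrophages the 0 called higher became 1 with thinned gates, thinned sums, the mean of each cell's CPM, or the highest cell left out, while the count called lower ranged from 3 to 5 over 13 alternatives. In monocytes the 1 called higher became 0 with thinned gates, where Lpl was -0.058, and Fabp4 was 0.35 with stricter gates, while the count called lower ranged from 6 to 7. In lymphocytes the 3 called lower became 7 with no minimum count, and Gpnmb was 0.22 with thinned sums. For cycling over non-cycling macrophages, the 0 higher became 1 with stricter gates and the 2 lower became 1 with thinned gates, and in Nrp1L/L Msr1 was 0.093 and Lipa 0.21 with thinned gates and Lipa 0.015 with stricter gates. The cause of these changes was not tested.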

Other observations

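Cells outside all gates also carried the lipid genes. Those without natural killer, dendritic, plasmacytoid or basophil markers numbered 25 in Nrp1L/L and 62 in control. They had Fabp5 at 1520 CPM in Nrp1L/L and 2181 CPM in control, Plin2 at 921 and 1143 CPM, Gpnmb at 307 and 420 CPM and Fabp4 at 142 and 115 CPM. Melanocyte genes in the same cells summed to 0 CPM in Nrp1L/L and 1836 CPM in control. Cells outside the gates with dendritic markers, 19 in Nrp1L/L and 87 in control, had Fabp5 at 746 CPM in Nrp1L/L and 1053 CPM in control, but Plin2 at only 79.7 and 67.1 CPM.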
